A study of Mus musculus with 18 samples.

Results

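Cytosolic ribosomal protein genes were read through the accessible regions at their ends. A region, 1 row of the deposited count table on mouse build mm10, was taken when it lay within 1 kb of an end of a protein-coding gene named Rpl or Rps with a digit, or of Rplp0, Rplp1, Rplp2 or Rpsa, with the Rps6k kinases and pseudogenes left out. This gave 110 regions of the 27396 in the table, at 76 of 89 such genes. ATAC-seq, in which a transposase cuts and tags open DNA, was run on spleen sections of wild-type C57BL/6J mice, and nuclei of immunostained B or T cells were then cut out by laser. B and T cells were each captured as 10 patches of about 100 nuclei per library (B patches and T patches, 5 libraries each) or as 100 nuclei picked singly (B 100 nuclei and T 100 nuclei, 4 libraries each). All 4 groups shared genotype and strain, and no label gives age, sex or the antibodies used for staining. Libraries of a group were technical replicates that no label tied to an animal, so each p-value measures only the spread between these libraries.

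Ribosomal proteins build the small (Rps) and large (Rpl) subunits of the ribosome in nearly fixed proportion, and the genes are transcribed in practically every growing or resting cell. Many of these promoters lack a TATA box and start transcription at a cytosine within a run of pyrimidines, which places a terminal oligopyrimidine (TOP) motif at the 5′ end of the mRNA through which mTOR signalling tunes translation. Their chromatin is therefore often taken as a housekeeping reference beside the lineage genes that separate B from T cells. The question put to the data was how evenly these regions were open across B cells, T cells and both capture sizes.

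Counted by symbol, with the encoded proteins not checked, 29 of 35 genes named Rps and 47 of 54 named Rpl had a region. Of these 76 genes, 46 had 1 region, 25 had 2 and 5 had 3. A start site fell inside 56 of the 110 regions, 21 lay within 1 kb of a start without covering it, 7 lay at the other end of the gene, and for 26 no start could be placed. The centres of the regions covering a start lay from -286 bp to 259 bp relative to it along the gene's strand, with a median of 1 bp. Regions at these genes were long, with a median of 380.5 bp against 298 bp over all regions at gene ends and 200 bp over all nuclear regions. No region was found within 1 kb of an end of Rpl10l, Rpl17, Rpl19, Rpl22, Rpl32l, Rpl37rt, Rpl39l, Rps19bp1, Rps2, Rps23rg1, Rps25, Rps27l or Rps27rt. Of these, Rps19bp1 encodes a binding partner of Rps19 and no ribosomal protein. Distance was measured to gene ends, so a region farther inside a gene was not taken, and these genes may still hold open regions. Regions lay 1453 bp from an end of Rpl17 and 1583 bp from an end of Rps2, for instance. Just inside the limit lay a second Rpl38 region at 852 bp, the Rpl13a region at 953 bp and an Rpl7l1 region at 957 bp, and just outside it a further Rpl38 region at 1039 bp, Rps27l at 1109 bp and Rpl22 at 1176 bp. Another protein-coding gene ended within 1 kb of 30 of the regions, and reads there cannot be assigned to either gene. Among the genes described here this holds for regions at Rpl15, Rpl36, Rpl36al, Rpl3l, Rpl7l1, Rplp2, Rps18, Rps27a, Rps28 and Rpl37.

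The start sites of 6 named genes are printed to show what these regions span. All 6 carry marked motifs, so they are no sample of the set: the same stretch at Rpl10, Rpl24 or Rpl27 held none. Each stretch runs from 80 bases before the start to base 20 of the transcript, 5′ to 3′ on the gene's strand, from RefSeq on GRCm38.p6. Capitals mark matches to the motifs listed after them, and in Rps6, Rpl15, Rpl38 and Rplp2 also the run of C and T that begins at the first transcribed base.
Rps6 (chr4:86857348-86857447, minus strand): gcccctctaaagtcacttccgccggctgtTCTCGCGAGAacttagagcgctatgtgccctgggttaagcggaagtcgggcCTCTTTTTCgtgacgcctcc
Rpl15 (chr14:18270967-18271066, minus strand): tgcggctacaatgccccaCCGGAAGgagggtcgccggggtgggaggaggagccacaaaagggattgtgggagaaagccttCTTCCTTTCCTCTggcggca
Rpl38 (chr11:114668500-114668599, plus strand): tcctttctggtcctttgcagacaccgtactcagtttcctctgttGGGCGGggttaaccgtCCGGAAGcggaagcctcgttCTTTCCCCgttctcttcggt
Rplp2 (chr7:141447571-141447670, plus strand): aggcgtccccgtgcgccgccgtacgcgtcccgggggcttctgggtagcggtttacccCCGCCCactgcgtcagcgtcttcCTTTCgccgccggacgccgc
Rps28 (chr17:33824543-33824642, minus strand): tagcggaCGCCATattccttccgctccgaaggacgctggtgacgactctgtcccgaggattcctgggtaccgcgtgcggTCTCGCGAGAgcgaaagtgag
Rpl37 (chr15:5116533-5116632, plus strand): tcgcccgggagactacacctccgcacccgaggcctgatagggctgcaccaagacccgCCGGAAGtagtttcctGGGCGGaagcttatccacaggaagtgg
Rps6 and Rps28 carried TCTCGCG on both strands as an overlapping palindrome, Rpl15, Rpl38 and Rpl37 the ETS-type motif CCGGAAG, Rpl38, Rplp2 and Rpl37 the GC box GGGCGG, and Rps28 the YY1-type motif ATGGCG.

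RefSeq promoters of 300 bases were at hand for 62 starts lying inside a region of their own ribosomal protein gene, at 55 genes. Motifs were searched on both strands, and matches of different motifs may overlap. CTCTTTC was present in 19 of the 62 (30.6%), against 6.34% of 8058 other protein-coding promoters whose start lay in a region and 7.73% of all 21262 protein-coding promoters. A start at C followed by at least 4 pyrimidines was found in 13 of 62 (21.0%), against 1.92% and 2.21%. TCTCGCG was found in 14 (22.6%), against 6.79% and 3.48%, CCGGAAG in 22 (35.5%), against 23.0% and 11.6%, and ATGGCG in 19 (30.6%), against 18.7% and 10.9%. The GC box GGGCGG was no more frequent than at other covered starts, with 40 of 62 (64.5%) against 71.5%, though above the 46.2% of all promoters. TATAAA occurred in 5 (8.06%), against 5.37% and 12.6%. The E-box CACGTG, a Myc-type motif, occurred in 5 (8.06%), against 11.5% and 7.84%. These matches are descriptions of sequence and no measure of binding.

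The libraries differed widely in depth. Counts off the mitochondrial genome ranged from 1722193 to 6136842 in patches and from 241786 to 715288 at 100 nuclei. Levels are given as nuclear CPM, counts scaled to the same total (CPM) over nuclear regions only. T libraries 3 and 4 of 100 nuclei stood apart, with reads in 3937 and 3296 nuclear regions against 7610 to 10950 in the other 6 libraries of that size. The median library gave B cell marker regions 0.207% (B patches) and 0.0453% (T patches) of its nuclear counts, and T cell marker regions 0.0454% and 0.169%. Regions at markers of other cell types were also read: plasma cell markers took a median of 0.0487% in B patches and 0.0372% in T patches, dendritic cell markers 0.0384% and 0.0266%, and stroma and endothelium markers 0.0179% and 0.0242%. The 2 macrophage and monocyte regions took at most 0.00318% in any library, and no region lay at a neutrophil marker. The part of these cells in the results was not tested. Each value pools many nuclei, so fewer nuclei with an open region and fewer cuts per nucleus cannot be told apart.

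In patches, ribosomal protein regions held nearly the same part of accessible chromatin in B and T cells. Of all nuclear counts they took 0.608% ± 0.0198 in B (SD, n = 5) and 0.631% ± 0.0264 in T (SD, n = 5). Single libraries ran from 0.583% to 0.635% in B and from 0.607% to 0.670% in T, so the groups overlapped. At 100 nuclei the means were near these but the libraries scattered: B libraries 1 to 4 held 0.689%, 0.693%, 0.532% and 0.510%, and T libraries 1 to 4 held 0.647%, 0.717%, 0.466% and 0.396%. Without T libraries 3 and 4 the T mean at 100 nuclei was 0.682%, against 0.557% with them.

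Within a library, the counts were spread over many ribosomal protein regions in patches and over few at 100 nuclei. The effective share, the inverse Simpson index divided by the number of regions, would be 100% if every region had the same count. It was 52.9% ± 7.15 in B (SD, n = 5) and 54.6% ± 2.54 in T patches (SD, n = 5), with B library 2 lowest at 40.9%. At 100 nuclei it was 29.1% ± 4.28 for B cells (SD, n = 4) and 21.6% ± 12.5 for T cells (SD, n = 4). The highest library of 100 nuclei, T library 2 at 35.1%, lay below the lowest patch library, and T libraries 3 and 4 were lowest at 12.3% and 9.57%. Without those libraries the T mean was 32.2%. The Gini coefficient of counts per kb, 0 for equal levels, gave the same order, at 0.396 ± 0.0778 in B patches, 0.391 ± 0.0643 in T patches, 0.743 ± 0.0422 in B and 0.794 ± 0.149 in T at 100 nuclei. The fall was not particular to these genes. Over all gene-end regions the mean effective share was 38.8% in B and 40.7% in T patches, and 23.4% and 18.4% at 100 nuclei. Their mean Gini coefficients were 0.421 in B and 0.421 in T patches, and 0.762 and 0.815 at 100 nuclei.

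**Figure D1:**
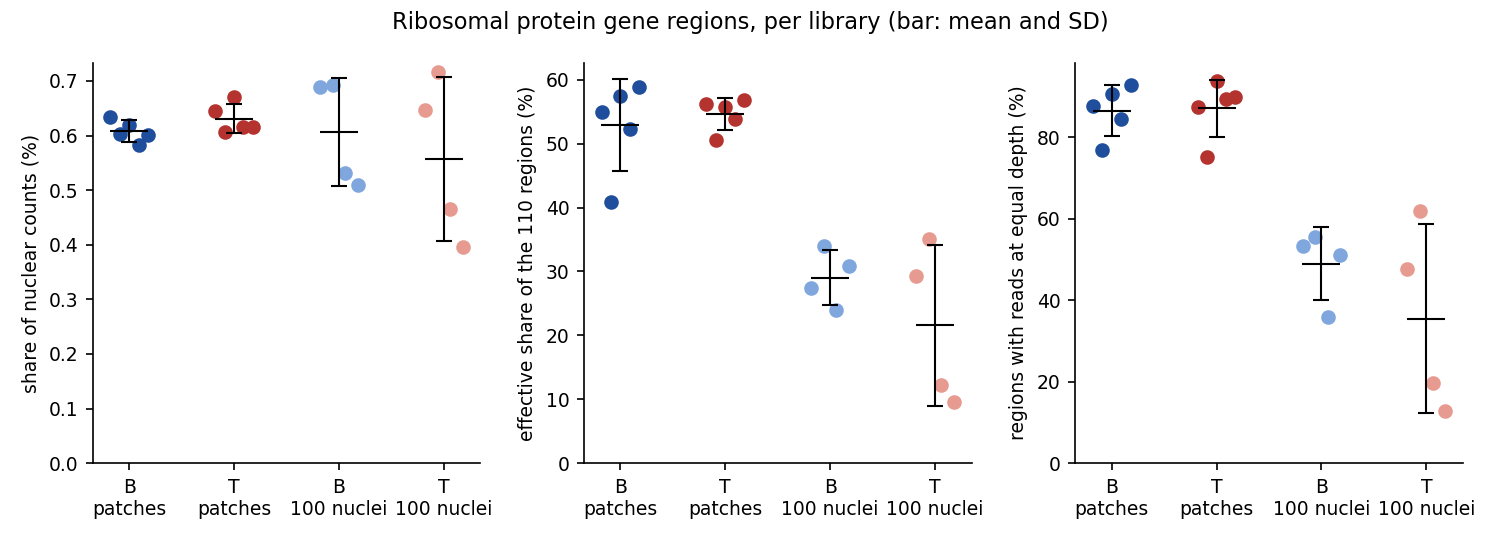
Each point is 1 library and the bars give mean and SD; the panels plot the share of nuclear counts in the 110 ribosomal protein regions (%), their effective share (%) and the regions with reads at equal nuclear depth (%) for the 4 groups. Shares of counts overlap between B and T patches, while every library of 100 nuclei lies below every patch library in the middle and right panels.

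Patch libraries read nearly all of these regions. Reads were found in 81.8% to 99.1% of the 110 regions in B patches and in 80.9% to 100% in T patches, against 36.4% to 56.4% in B and 12.7% to 67.3% in T at 100 nuclei. Rarefied to the lowest nuclear depth, 241786 counts, the shares were 86.5% ± 6.24 in B patches, 87.2% ± 7.03 in T patches (SD, n = 5 for both), and for 100 nuclei 49.0% ± 8.88 with B cells and 35.5% ± 23.2 with T cells (SD, n = 4 for both), or 54.8% in T without libraries 3 and 4. Only the count total was matched here, and the number of distinct molecules is not known. At 10 times lower depth the shares were 56.5% in B patches and 38.2% in B at 100 nuclei. Set against all regions at gene ends in the same library, ribosomal protein regions differed by -2.63 to 2.65 points in patches. At 100 nuclei they differed by -2.92 to 13.6 points, with T library 2 and B libraries 2 and 1 furthest above, at 13.6, 13.1 and 10.6 points.

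Region by region, 74 of the 110 (67.3%) had reads in all 10 patch libraries, against 63.6% of all gene-end regions and 50.3% of all nuclear regions. Of the 8 libraries of 100 nuclei, all 8 read 3 of the regions (2.73%, against 2.46% of gene-end regions), those at Rpl30 and Rpl36al among them. Rpl30, a large-subunit protein, had 31.0, 140, 231 and 116 CPM in the B libraries and 212, 13.98, 121 and 397 CPM in the T libraries. Rpl36al, a paralog of Rpl36a, had 145, 77.5, 17.6 and 141 CPM in B and 13.0, 147, 233 and 124 CPM in T. In both, libraries of 1 group differed by several fold, while in patches Rpl30 ran only from 62.8 to 95.2 CPM in B and from 44.3 to 99.9 CPM in T. None of the 8 read 13 of the regions (11.8%, against 13.2% of gene-end regions), and these had means from 3.59 to 22.9 CPM in patches.

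**Figure D2:**
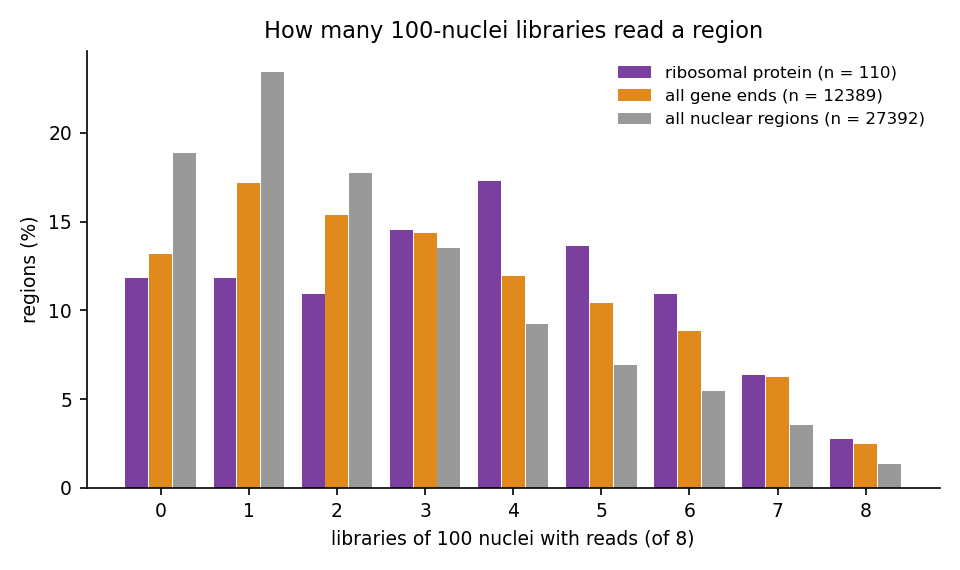
Bars give the percentage of regions (y axis) that had reads in 0 to 8 of the libraries of 100 nuclei (x axis) for the 110 ribosomal protein regions, all 12389 gene-end regions and all 27392 nuclear regions. Ribosomal protein regions peak at 4 libraries (17.3%), and 2.73% of them were read by all 8.

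Among themselves, the regions differed far more than B differed from T. Levels per kb of region, which allow genes to be compared, had a median of 111 CPM per kb in B patches and 123 in T patches, against 104 and 111 over all gene-end regions and 91.1 and 93.5 over all nuclear regions. Among the highest over the 10 patch libraries were the Rpl13a start at 361 CPM per kb, Rpl37 at 254 and Rpl18 at 243. Lowest among the genes' highest regions were Rpl6 at 47.8, Rps4x at 68.2, Rpl37a at 73.3, Rpl39 at 73.4 and Rpl24 at 86.3 CPM per kb. Over the 110 regions the order in B patches followed that in T patches (Spearman rho 0.843, Pearson r 0.874 on log2 of CPM per kb plus 1), while B and T at 100 nuclei gave a rho of 0.311. All regions come from the same libraries and share their depth, so these coefficients are descriptions. Pairs of single libraries within a group gave a median rho of 0.588 in B patches, 0.541 in T patches, 0.286 in B and 0.206 in T at 100 nuclei.

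**Figure D3:**
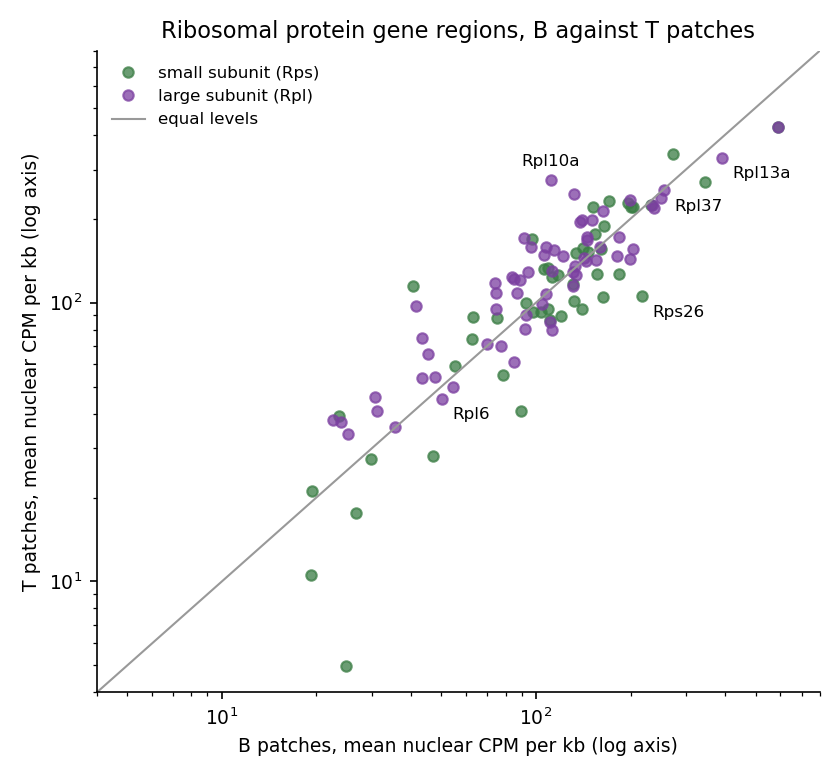
Each point is 1 ribosomal protein region, with its mean nuclear CPM per kb in B patches (x axis) and in T patches (y axis), both on log axes, coloured by ribosomal subunit; the line marks equal levels. The points follow the line over the range of levels (Spearman rho 0.843, n = 110), with Rpl10a above it and the Rps26 region within 1 kb of the start below it.

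No ribosomal protein region passed the test between B and T patches. Of the 103 regions that passed the filter on low counts (at all 76 genes; the 7 others include regions at Rpl32, Rps12, Rps15a and Rps7), 0 were called higher or lower by edgeR's quasi-likelihood test at an adjusted p of 0.05, where 2.27% of all 25712 regions tested were called, and 0.654% of other gene-end regions. An unadjusted p under 0.05 was reached by 1 of the 103, against 12.7% of all regions and 667 of 11924 other gene-end regions, and DESeq2 called 0 of the 103 as well. In 0 of the 103 did the 5 B and 5 T libraries not overlap, against 8.07% of all regions and 3.11% of other gene-end regions. Marker regions gave calls in the same fit. Of gene-end regions, 8 of 20 at B cell markers were higher in B and 5 of 18 at T cell markers were lower. These lists were chosen with earlier results of these data known, so the calls are no independent check. An Ms4a1 region among them had 0 CPM in T patches, so its direction was set by the filter.

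The median log2 fold change of B over T patches was -0.08 over the 103 regions and -0.03 over all regions, and -0.26 and -0.19 with library size alone in place of TMM scaling. The median size of the fold change was 0.26, against 0.39 at other gene ends and 0.57 over all regions, and only 4 of 103 exceeded 1 (3.88%, against 15.6% of other gene-end regions and 30.8% of all regions). Their abundance was higher too, with a median log2 CPM of 5.25 in the fit against 4.69 at other gene ends and 3.99 over all regions. Among regions at or above the members' median abundance, the median size was 0.21 over 52 ribosomal protein regions, 0.24 over 4434 other gene-end regions and 0.27 over 5859 regions in all. At or above that abundance the difference between the sets was thus small. For 24 of the 103 regions the 95% interval of the fold change lay wholly within a log2 change of 1 either way, so for the rest a change of that size remains within error.

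**Figure D4:**
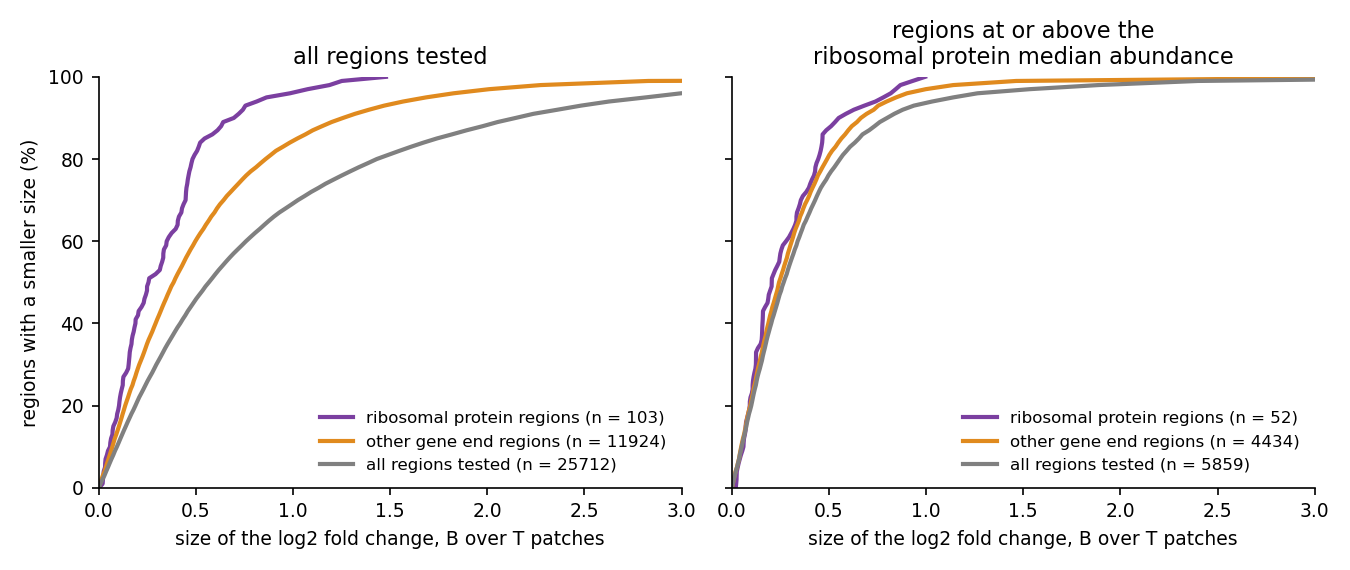
The curves give the percentage of regions (y axis) whose log2 fold change of B over T patches is smaller in size than the value on the x axis, for all regions tested on the left and for those at or above the ribosomal protein median abundance on the right. Half-way points lie at 0.26, 0.39 and 0.57 on the left and at 0.21, 0.24 and 0.27 on the right, for ribosomal protein, other gene-end and all regions.

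Rpl37, a small zinc-binding protein of the large subunit, was the most even in B patches, at 177, 160, 161, 163 and 162 CPM. The T patches had 164, 111, 161, 244 and 136 CPM around almost the same mean, and the log2 fold change was 0.02 ± 0.26 (SE; edgeR adjusted p = 0.990). Rpl18 ran from 73.0 to 115 CPM in B and from 75.3 to 106 CPM in T (0.11 ± 0.28, edgeR adjusted p = 0.963). Rps13, named here because it had the lowest coefficient of variation over the 10 patch libraries (14.4%), ran from 66.0 to 86.0 CPM in B and from 65.3 to 97.2 CPM in T. Over the 110 regions this coefficient had a median of 47.7%, against 55.1% at other gene ends. At or above the members' median CPM it was 34.1% against 34.6%, and below it 68.2% against 73.9%. The medians were thus close above the cut and further apart below it, and the cut does not match levels region by region.

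Proteins with roles beyond the ribosome core showed no call either. Rps6, the substrate of S6 kinase, had 98.3 ± 32.3 CPM in B and 109 ± 45.2 in T patches (SD, 5 libraries each; log2 fold change -0.12 ± 0.33, edgeR adjusted p = 0.963). Rpsa, also known as a laminin receptor, had 72.9 ± 32.0 and 98.7 ± 36.1 CPM (-0.39 ± 0.35, edgeR adjusted p = 0.791). Rpl5 and Rpl11, which with 5S rRNA bind the p53 regulator Mdm2, had log2 fold changes of 0.11 ± 0.36 and -0.46 ± 0.52, the first turning to -0.05 with library size alone as the scaling. Rps27a, made as a fusion with ubiquitin, ran from 92.8 to 192 CPM in B and from 31.9 to 119 CPM in T (0.63 ± 0.34, edgeR adjusted p = 0.475). The B and T libraries of Rps27a overlapped, as they did in every ribosomal protein region tested.

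The stalk proteins Rplp0, Rplp1 and Rplp2, which recruit elongation factors to the ribosome, had no call. Rplp0 had 137 ± 26.99 CPM in B and 105 ± 67.3 in T, where T library 2 held only 4.06 CPM. Rplp1 had 81.4 ± 34.1 and 80.9 ± 31.4 CPM (log2 fold change 0.07, or -0.12 with library size alone), and Rplp2 had 84.2 ± 29.7 and 117 ± 27.7 CPM (SD, 5 libraries each). All 3 had edgeR adjusted p-values of at least 0.701. Rps19 and Rps14, the small-subunit proteins tied to inherited and acquired anaemia, had log2 fold changes of -0.18 ± 0.27 and -0.26 ± 0.36, and Rpl10 and Rpl3, of the large subunit, -0.35 ± 0.27 and -0.41 ± 0.32. The paralogs Rpl3l, Rpl7l1, Rpl22l1 and Rpl36al had 0.11 ± 0.39, -0.72 ± 0.54, -0.82 ± 0.43 and -0.47 ± 0.31, with edgeR adjusted p-values from 0.464 to 0.974, and Rpl3l turning to -0.03 with library size alone. The only Rpl3l region lay at the other end of the gene, 191 bp from it, and so did not read the Rpl3l start.

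The widest differences among the better-read regions also failed the test. A region within 1 kb of the Rps26 start had 40.9, 93.4, 90.8, 68.4 and 71.7 CPM in B patches and 71.2, 2.90, 43.8, 21.5 and 38.3 CPM in T patches. Most B libraries were above most T libraries, but T libraries 1 and 3 lay within the B range (0.99 ± 0.54, edgeR adjusted p = 0.482). Rpl27 was lower in B, at 66.3 ± 34.8 against 124 ± 42.4 CPM (SD, 5 libraries each; -0.87 ± 0.43, edgeR adjusted p = 0.409). Rpl22l1, a paralog of Rpl22, had 189.9 CPM in T library 2 and at most 65.4 CPM in any other patch library. Rpl10a, the only region with an unadjusted p under 0.05, had 16.9, 8.05, 41.4, 30.6 and 20.3 CPM in B and 72.9, 81.9, 61.1, 10.4 and 61.5 CPM in T. T library 4 of Rpl10a lay among the B libraries, and the log2 fold change was -1.25 ± 0.56 (edgeR adjusted p = 0.329).

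**Figure D5:**
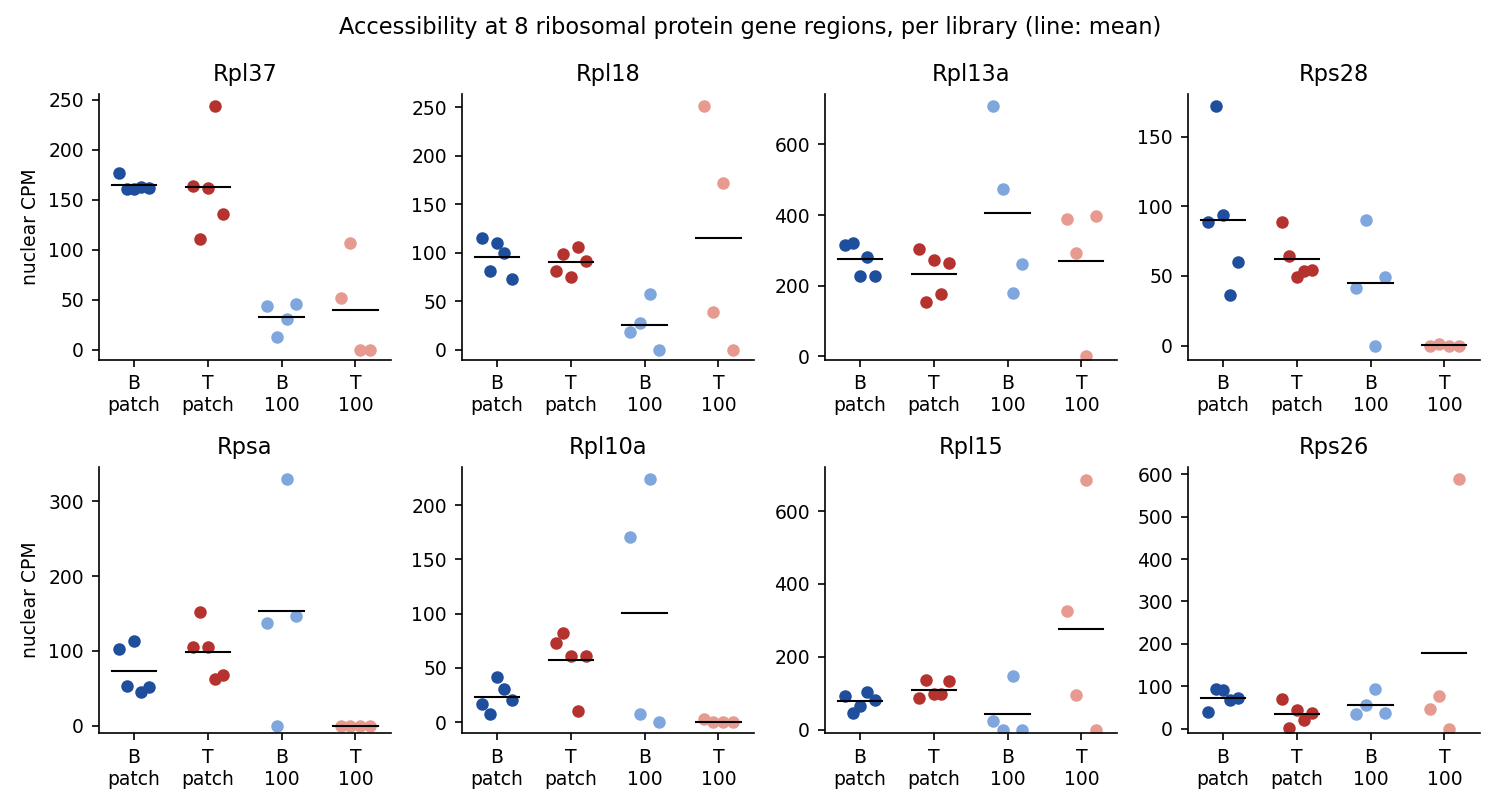
Each point is the nuclear CPM of 1 library (y axis) in the 4 groups (x axis) for the regions at Rpl37, Rpl18, Rpl13a, Rps28, Rpsa, Rpl10a, Rpl15 and Rps26 (the region within 1 kb of the start), with lines at the group means. B and T patches overlap in every panel, while libraries of 100 nuclei range from 0 to 709 CPM.

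Other genes of translation had 1 call between B and T patches, where 0.654% of gene-end regions outside the ribosomal protein genes were called, a share at which lists of this size hold few or no calls. None of the gene-end regions tested passed at mitochondrial ribosomal proteins (0 of 101), ribosome biogenesis factors (0 of 49), elongation factors (0 of 21), translation kinases and repressors (0 of 24) or other ribosome genes, such as Fau and Rack1 (0 of 5). Among initiation factors 1 of 58 was called, at Eif3k, a subunit of the eIF3 scaffold, higher in B with a log2 fold change of 1.26 ± 0.29 (edgeR adjusted p = 0.0224). Median fold sizes in these lists ran from 0.18 at elongation factors to 0.46 at kinases and repressors.

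At 100 nuclei, B and T could hardly be compared region by region. Of the 103 regions, 0 were called by edgeR or by DESeq2, where edgeR called 0.0156% of all regions, the 4 mitochondrial ones. An unadjusted p under 0.05 was reached by 2 of the 103, at Rpsa and Rpl37a, against 5.50% of all regions. The median size of the log2 fold change was 1.04, with a median standard error of 2.81. Rpsa had 137, 0, 329 and 147 CPM in the B libraries and 0 in all 4 T libraries, at least 105-fold higher in B against a floor of 3 counts over the T group (edgeR adjusted p = 0.355). Since B library 2 was also at 0, the groups touched. Rpl10a had 171, 7.50, 224 and 0 CPM in B and 2.89, 0, 0 and 0 CPM in T, the opposite direction to its patches, and Rpl15 had 23.3, 0, 148 and 0 CPM in B and 327, 95.1, 687 and 0 CPM in T. Neither passed (edgeR adjusted p = 0.355 and 0.626). Fitted jointly with the patches, with the spread of a region estimated over all groups together, 11 of the 103 were called, against 6954 of all 25712 regions. The cause of these added calls was not tested.

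The B minus T difference was also tested between capture sizes, on all 18 libraries. EdgeR called 0 of the 103 regions, and 0.0% of all regions, though 14 of the 103 had an unadjusted p under 0.05, against 27.1% of all, and DESeq2 called 11, against 3144 of all 25712 regions. The lowest adjusted values of named regions were at Rpsa (edgeR adjusted p = 0.0725) and at Rps28 (edgeR adjusted p = 0.0739). Without T libraries 3 and 4 of 100 nuclei 1 region was called, Rpsa, and without T library 1, T library 2 or B library 2 of 100 nuclei 4, 3 and 1 were called. Of all 25712 regions these fits called 92, 419, 97 and 11, in the same order. Rps28, a small-subunit protein near the mRNA exit, ran from 36.1 to 172 CPM in B patches and from 49.0 to 89.0 CPM in T patches. At 100 nuclei Rps28 had 41.4, 89.97, 0 and 48.9 CPM in B but 0, 1.40, 0 and 0 CPM in T.

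More counts per region in patches than at 100 nuclei were called at a minority of these regions, none in the other direction, where 0.0117% of all regions were called lower in either cell type. In B, 10 of the 103 were higher in patches (edgeR), where 13.9% of all regions and 12.1% of other gene-end regions were called higher. The median log2 fold change was 1.02 over the 103 regions and 1.33 over all regions. Only 1 of the 10 was among the 52 regions at or above the members' median abundance. That was Rpl37, whose 160 to 177 CPM in B patches stood above 43.98, 12.5, 30.2 and 45.9 CPM at 100 nuclei (3.12 ± 0.70, edgeR adjusted p = 0.0283). Rps3, a small-subunit protein that also takes part in DNA repair, had 33.8 to 85.2 CPM in B patches and 0, 2.50, 0 and 0 CPM at 100 nuclei (6.99 ± 1.57, edgeR adjusted p = 0.0283). Rpl8 was called too, with 5.17 CPM in 1 library of 100 nuclei and 0 in the others (edgeR adjusted p = 0.0432). Rps3 and Rpl8 each had reads in only 1 library of this group, so they passed the filter on low counts through other groups. Their direction was thus largely set by the filter, and both are given as values, not as support.

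The other 7 called in B had no read in any library of 100 nuclei, and were from at least 3.87-fold to at least 12.9-fold higher in patches, the floor being 3 counts over the group. A region at 0 in this group could pass the filter on low counts only through groups with reads, so its direction was set by the filter and these 7 are given as values, not as support. Among them were regions at Rpl6, Rps18, Rpl24, Rpl38, Rps26 and Rpl7l1, the last with 24.0, 21.5, 26.1, 20.7 and 31.8 CPM in B patches. This Rpl7l1 region lay at the other end of the gene, away from its start. Rpl34 and Rps24 went the other way without passing: Rpl34 had 51.1 to 141 CPM in B patches and 116 to 256 CPM at 100 nuclei (-0.33 ± 0.62, edgeR adjusted p = 0.832). All 10 calls were lost when B patch library 1, 3 or 5 was left out, and each of these fits called 0 of all regions tested, against 3579 with every library.

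In T, 18 of the 103 regions, at 16 genes, were higher in patches (edgeR), where 28.0% of all regions and 23.6% of other gene-end regions were called higher, and 2 of the 18 were among the 52 regions at or above the members' median abundance. The median log2 fold change was 1.49 over the 103 regions and 2.07 over all. Rpsa had 105, 152, 105, 62.2 and 68.2 CPM in T patches and no read at 100 nuclei, at least 65.3-fold higher (edgeR adjusted p = 0.0120). In all, 13 of the 18 had no read at 100 nuclei, with bounds from at least 4.53-fold upward, and for these too the filter on low counts left only this direction, so they support nothing. Among them Rpl32, at 15.7 to 56.9 CPM in T patches, was at least 22.4-fold higher. Rps28 fell from 62.2 ± 16.0 CPM in T patches (SD, n = 5) to reads in 1 library of 4 (edgeR adjusted p = 0.0120). Reads in 1 library could not carry Rps28 past the filter either, so this call is given as a value too. Without T libraries 3 and 4 of 100 nuclei 9 regions were called, 7 of them among the 18, with Rpsa, Rps28 and Rpl32 among the 7, and without T library 2 the count was 36. Of all 25712 regions these fits called 3057 and 8788, against 7207 with every library.

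Regions called in both cell types numbered 3, at Rps18, Rps26 and Rpl38. Their patch levels were low, at 12.0 ± 9.01, 23.5 ± 18.2 and 18.4 ± 19.7 CPM in B patches and 8.39 ± 4.40, 22.3 ± 13.1 and 27.1 ± 27.2 CPM in T patches (SD, 5 libraries each). At Rps18 and Rps26 none of the 8 libraries of 100 nuclei had a read, and at Rpl38 only 1.40 CPM was found, in T library 2. All 3 passed the filter on low counts through the patches, so these calls too support nothing. At 100 nuclei, the median count of the ribosomal protein regions with reads ran from 22 to 72 per library. Within 1 group, a single region could differ widely. The second Rps26 region had 0 CPM in T library 3 of 100 nuclei and 587 CPM in library 4. No other T library of that size exceeded 76.9 CPM there.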

How the data were processed

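ATAC-seq counts were analysed for 18 spleen libraries. Per region and library the authors deposited a raw count, a whole number that was not normalized, in 1 table. Per the submitters' processing notes, the build was mm10 and the tools were MACS2 2.2.7.1, Bowtie2 2.4.5, SAMtools 1.14, deepTools 3.5.2, Picard, Trimmomatic 0.36, R 4.1.0 and bcl2fastq 2.20. No source used here gives their roles, the handling of duplicates or a transposase shift. Total counts ranged from 319481 to 7343204 per library. Reads carried no stated molecular identifiers, so floors cover counting error only. Coordinates are as the file gives them, with no statement of whether starts count from 0 or 1.

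Gene ends and promoters came from RefSeq tables of GRCm38.p6; 57 of the 76 genes had a promoter entry. Tests used edgeR 4.0.16 in R 4.3.3 (TMM, a filter at a minimum count of 10, quasi-likelihood F-test, Benjamini-Hochberg adjustment over all 25712 regions tested at 0.05), each comparison on the groups it is about and the size-by-cell-type interaction on 18 libraries. The standard error is the log2 fold change divided by the root of F. A group at 0 was set to 3 counts over its libraries. DESeq2 1.42.0, other scalings, filters and member sets, a replicate block and leaving out libraries were alternatives. Same-numbered libraries did not deviate together (correlations from -0.012 to 0.035), and no 2 libraries were duplicates.

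The members and gene lists were chosen with earlier results of these data known. Named regions were those called (at most 10 per comparison), the widest fold changes among better-read members, the highest and lowest levels per kb, members read in all 18 libraries, and a set chosen by role; some are not reported here.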

Additional observations from a re-analysis of the deposited data

Results flagged for a closer look

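In 6 of 140 groups of libraries tested, 1 library lay far from the others of its group by Dixon's criterion, where chance gives about 1 in 20; 56 groups with more than 1 library at 0 were not tested. Rpl22l1 had 65.4 CPM in B patch library 1 against 33.3 to 41.1 in the others, and 189.9 CPM in T patch library 2 against 32.6 to 61.4. Rps24 had 0 CPM in B patch library 2 against 44.6 to 59.1. Rpl37 had 177 CPM in B patch library 1 against 160 to 163. The Rpl38 region covering the start had 74.9 CPM in T patch library 2 against 11.5 to 23.5. The Rps26 region within 1 kb of the start had 587 CPM in T library 4 of 100 nuclei against 0 to 76.9.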

How the results depend on the processing

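Between B and T patches 0 regions were called under each alternative run. For B patches against 100 nuclei the count of 10 became 6 with library size alone, 3 with upper-quartile factors, 6 at a minimum count of 30 and 0 in the joint fit. Of all regions these fits called 2642, 1768, 2206 and 0, in the same order, against 3579 in the main fit. Calls over the whole table thus fell as well. A minimum count of 30 left 87 ribosomal protein regions to test. With 1 library left out the B count ran from 0 to 14. For T the count of 18 became 11 at a minimum count of 30 and 9 without T libraries 3 and 4 of 100 nuclei, and ran from 13 to 36 with 1 library left out. Of all regions the fits giving 18, 11, 9 and 36 called 7207, 4076, 3057 and 8788. With regions within 100 bp of a gene end the counts were 6 (B) and 11 (T), and with 1 region per gene 6 and 10, sets that hold fewer regions. The joint fit called 11 between B and T at 100 nuclei, against 6954 of all regions. For the difference between capture sizes DESeq2 called 11, the fit without T libraries 3 and 4 called 1, and 0 to 4 were called with 1 library left out. Replicate numbers do not pair the libraries. With a replicate block both capture-size counts became 0, where 3 (B) and 2 (T) of all regions were called. Across capture sizes these fits also left out patch library 5, which has no same-numbered library at 100 nuclei. Without B patch library 5 alone the B count was already 0, so in B the 2 changes cannot be told apart. The median fold sizes with the block were 0.37 (B against T patches), 1.48 (B against T at 100 nuclei), 3.20 and 5.46 (patches against 100 nuclei in B and T) and 2.01 (difference between sizes). Of 17 same-numbered pairs, 5 correlated best with their own number. Uncalled fold changes near 0 changed sign: with 1 library left out Rps6 ran from -0.31 to 0.14, Rps4x from -0.73 to 0.31, Rpl5 from -0.070 to 0.45, Rplp1 from -0.078 to 0.30, Rpl3l from -0.051 to 0.40, and Rps26 (T patches against 100 nuclei) from -0.996 to 0.47. With library size alone Rpl5 was -0.052, Rplp1 -0.12 and Rpl3l -0.029; Rplp1 was -0.034 in the joint fit, and Rpl10 at 100 nuclei, uncalled but not near 0, went from -2.29 to 0.87 with the replicate block. The share of counts in B and T patches was 0.534% and 0.559% within 100 bp, 0.639% and 0.668% within 2 kb, 0.556% and 0.579% with 1 region per gene and 0.580% and 0.594% without paralogs. In B patches, T patches, B and T at 100 nuclei it was 0.441%, 0.509%, 0.368% and 0.384% of all counts, and 0.926%, 0.950%, 0.922% and 0.845% of counts at gene ends. In B patches, T patches and B at 100 nuclei the effective share was 64.4%, 67.5% and 34.9% within 100 bp and 67.7%, 69.4% and 36.9% with 1 region per gene. The regions read at equal depth were 95.8%, 95.5% and 59.9% within 100 bp, 97.7%, 96.8% and 63.3% with 1 region per gene, and 56.5%, 57.7% and 38.2% at a 10 times lower depth. The cause of these shifts was not tested. Upper-quartile factors could not be had for B against T at 100 nuclei, T patches against 100 nuclei and the difference between sizes, where a library's upper quartile is 0. Between B and T at 100 nuclei the standard errors had a median of 2.81, so only very large differences could be told from error.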
